A study of Mus musculus with 12 samples.

Results

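The CXC chemokine ligands with mRNA in sorted peritoneal macrophages (Mϕ) were examined. The set comprised 8 genes of the 47643 listed in each table, namely Cxcl1, Cxcl2, Cxcl9, Cxcl10, Cxcl13, Cxcl14, Cxcl16 and Pf4, chosen by name, and each was matched to 1 Ensembl identifier in both tables. The study induced a self-resolving peritonitis in mice with zymosan, a yeast cell wall preparation, and blocked mPGES-1, the inducible enzyme that makes prostaglandin E2. All 12 libraries came from female C57BL/6 mice of 8 to 12 weeks that had received 5 mg/kg zymosan intraperitoneally and were sampled at day 6. From day 1 on, the mice were injected daily with the mPGES-1 inhibitor compound III (CIII) at 25 mg/kg or with its vehicle (VEH), a saline with Tween-80 and carboxymethyl cellulose. Mϕ positive for CD45 and CD11b were sorted from the peritoneal lavage as F4/80lo Mϕ, which were low for F4/80 and MerTK and high for MHCII, or as F4/80hi Mϕ, which were high for F4/80 and MerTK. Each of the 4 groups held 3 libraries with replicate numbers 1, 2 and 3. The groups had no zymosan-free mice among them, and neither pooling of mice nor the mouse behind each library is given in the sources used here, so p-values measure the spread between these libraries.

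CXC chemokines are small secreted proteins that direct leukocytes through G protein-coupled receptors. Cxcl1 and Cxcl2 act on Cxcr2 and attract neutrophils, and their genes are classic targets of NF-kB. Cxcl9 and Cxcl10 act on Cxcr3 and attract activated T and NK cells, and their genes respond to interferons. Cxcl13 guides B cells through Cxcr5 and is made by peritoneal Mϕ, Cxcl16 is a membrane-bound ligand of Cxcr6 that also serves as a scavenger receptor, Cxcl14 is a homeostatic chemokine, and Pf4 (Cxcl4) is best known from platelet granules.

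Of these genes, 6 lie on chromosome 5 of GRCm38. Pf4 (ENSMUSG00000029373, 90772435 to 90773383), Cxcl1 (ENSMUSG00000029380, 90891241 to 90893115) and Cxcl2 (ENSMUSG00000058427, 90903871 to 90905938) lie in this order on the plus strand. Between Pf4 and Cxcl1 are 117857 bases, which hold Cxcl3 and Cxcl15, and between Cxcl1 and Cxcl2 are 10755 bases. Cxcl9 (ENSMUSG00000029417, 92321347 to 92328079) and Cxcl10 (ENSMUSG00000034855, 92346638 to 92348889) lie 18558 bases apart on the minus strand, and Cxcl13 (ENSMUSG00000023078, 95956951 to 95961068) lies on the plus strand. Cxcl14 (ENSMUSG00000021508) is on chromosome 13 from 56288643 to 56296551 and Cxcl16 (ENSMUSG00000018920) on chromosome 11 from 70453983 to 70459984, both on the minus strand. All 8 genes are protein coding. Cxcl10 overlaps Art3 and Cxcl16 overlaps Zmynd15, each on the opposite strand, and since the strand setting of the counting is not given in the sources used here, reads of these 2 genes could include those of the overlapping gene. No 50-base run was shared between the last 400 bases of any of the 105 pairs among the 8 genes and 7 further CXC ligands.

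The promoters of 5 ligands that the comparisons turn on are shown, as the 250 bases before the transcription start (RefSeq, GRCm38.p6, 5′ to 3′ on the strand of the gene). The windows are chr5:90890995-90891244 for Cxcl1, chr5:90903649-90903898 for Cxcl2 and chr5:90772185-90772434 for Pf4 on the plus strand, and chr5:92328080-92328329 for Cxcl9 and chr5:92348890-92349139 for Cxcl10 on the minus strand. Capitals mark matches to a strict form of the NF-kB motif or of the interferon-stimulated response element (ISRE) on either strand.
Cxcl1: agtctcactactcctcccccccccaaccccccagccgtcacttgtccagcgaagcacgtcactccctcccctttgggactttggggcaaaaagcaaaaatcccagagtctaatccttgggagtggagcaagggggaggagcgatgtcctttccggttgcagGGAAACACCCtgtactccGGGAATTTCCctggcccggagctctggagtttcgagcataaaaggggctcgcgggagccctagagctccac
Cxcl2: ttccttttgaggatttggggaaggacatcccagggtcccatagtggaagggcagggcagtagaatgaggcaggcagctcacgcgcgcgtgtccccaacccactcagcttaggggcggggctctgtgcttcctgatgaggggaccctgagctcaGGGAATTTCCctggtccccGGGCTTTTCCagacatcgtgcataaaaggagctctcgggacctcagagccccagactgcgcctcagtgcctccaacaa
Pf4: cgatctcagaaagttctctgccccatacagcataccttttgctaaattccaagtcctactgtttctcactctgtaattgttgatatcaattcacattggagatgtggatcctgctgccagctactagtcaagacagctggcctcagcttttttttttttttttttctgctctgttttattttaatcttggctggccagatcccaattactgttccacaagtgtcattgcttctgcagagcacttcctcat
Cxcl9: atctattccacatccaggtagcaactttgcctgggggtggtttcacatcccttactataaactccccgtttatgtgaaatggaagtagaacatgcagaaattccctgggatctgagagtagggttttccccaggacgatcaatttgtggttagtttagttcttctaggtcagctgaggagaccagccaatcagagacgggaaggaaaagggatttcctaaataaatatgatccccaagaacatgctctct
Cxcl10: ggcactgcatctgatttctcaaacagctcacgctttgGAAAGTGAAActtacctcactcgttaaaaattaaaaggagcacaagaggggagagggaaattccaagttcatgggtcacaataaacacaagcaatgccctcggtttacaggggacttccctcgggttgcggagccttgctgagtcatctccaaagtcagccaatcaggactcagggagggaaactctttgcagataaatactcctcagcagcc

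Promoter windows were found for 7 of the 8 ligands. This form of the NF-kB motif occurred 2 times each in the windows of Cxcl1 and Cxcl2, and in 1.41% of the 32851 windows of all genes. Looser forms were not searched, so a window without a match, such as that of Cxcl10, can hold other NF-kB-like sequences. The ISRE occurred once each in the windows of Cxcl10 and Cxcl14, and in 2.98% of all windows. Matches of the 2 motifs did not overlap each other, and the windows of Cxcl9, Cxcl13 and Pf4 held a match to neither form. A match of letters is a description and not a binding site.

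Depth ran from 426624 to 3389448 reads on genes. The 4 libraries with replicate number 3 stood apart, since 2.65% to 14.3% of their reads fell on Gm42418, whereas no other library exceeded 0.579%, and results are therefore also given without them. Of the Mϕ markers, Csf1r, Cd68, Itgam, Fcgr1, Lyz2 and Aif1 were detected in 12 of 12 libraries. Adgre1, which encodes F4/80, was lower in F4/80lo Mϕ by 1.61 on the log2 scale (limma, adjusted p = 0.135, and 0.000672 with the replicate number as a block), whereas Mertk differed by -0.11 (limma, adjusted p = 0.919). In the sorted F4/80hi Mϕ with replicate number 3, the summed level of 8 markers of resident peritoneal Mϕ, in reads per 1000000 reads on genes (RPM), was 718 with VEH and 1287 with CIII, against 5650 to 7444 in the 4 other F4/80hi libraries.

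First, the levels of the ligands in both subpopulations were compared. The tables of F4/80lo and F4/80hi Mϕ were normalized separately, so whole reads were recovered from the deposited values and set as RPM, a scale shared by all libraries. The 3′ libraries read 1 end of a transcript, and levels were not divided by length.

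Pf4 was the ligand with the highest mean level in every group and was lower in F4/80lo than in F4/80hi Mϕ in 6 of 6 same-numbered pairs. Its level in F4/80hi Mϕ was 2514, 1336 and 66.6 RPM with VEH and 782, 1037 and 21.8 with CIII, in the order of replicate numbers 1 to 3. The F4/80lo Mϕ had 458, 342 and 14.2 RPM with VEH and 175, 370 and 8.11 with CIII. The libraries with replicate number 3 were far below the rest in every group, so the groups overlapped although each pair pointed the same way. In these libraries Pf4 was also below Cxcl16. Cxcl16 had 67.6 RPM with VEH and 101 with CIII there in F4/80hi Mϕ, and 45.1 and 83.5 in F4/80lo Mϕ. Within pairs, the F4/80hi level of Pf4 was 2.69 to 5.49 times its F4/80lo level (median 4.19).

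Cxcl2 was likewise lower in F4/80lo Mϕ in 6 of 6 pairs. It had 130, 221 and 4.76 RPM with VEH and 95.8, 107 and 18.3 with CIII in F4/80hi Mϕ. In F4/80lo Mϕ, it had 82.5, 77.7 and 4.72 with VEH and 16.1, 23.4 and 10.4 with CIII. The pair with replicate number 3 and VEH was nearly level, and the ratio of F4/80hi to F4/80lo ran from 1.01 to 5.94 (median 2.30). Of the 10736 genes tested, 3.95% were lower in F4/80lo Mϕ in all 6 pairs.

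**Figure D1:**
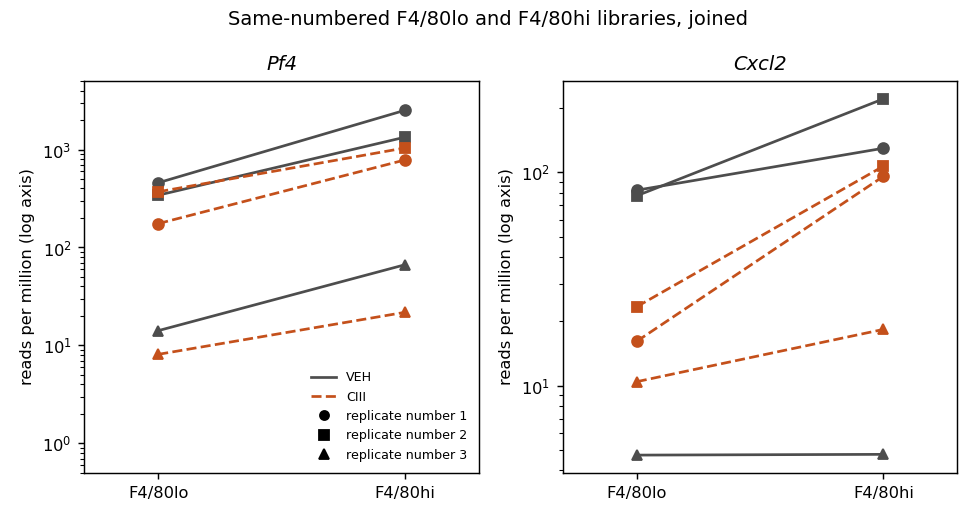
Pf4 (left) and Cxcl2 (right) in RPM on log axes, with lines joining the F4/80lo and F4/80hi libraries of the same treatment and replicate number (circles, squares and triangles for numbers 1, 2 and 3, solid grey for VEH, dashed orange for CIII). All 12 lines rise toward F4/80hi, by 2.69 to 5.49 times for Pf4 and 1.01 to 5.94 times for Cxcl2.

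Whether these differences passed the test turned on the replicate number. In limma's test of the 4 group means, Pf4 differed by -1.92 between F4/80lo and F4/80hi Mϕ on the log2 scale of RPM plus 1 (standard error 1.25, limma, adjusted p = 0.669) and Cxcl2 by -1.26 (standard error 0.87, limma, adjusted p = 0.699). None of the 8 ligands passed, and of the 10736 genes 0.0373% passed in either direction and 0.00931% as lower in F4/80lo Mϕ. Before adjustment 0 of the 8 passed in limma and 1, Cxcl2, in edgeR (edgeR, adjusted p = 0.480), where 9.46% of all genes did in either tool. With same-numbered libraries of a treatment paired as a block, Pf4 (standard error 0.17, limma, adjusted p = 7.47e-06) and Cxcl2 (standard error 0.29, limma, adjusted p = 0.0191) were lower in F4/80lo Mϕ. Among all genes 5.42% passed with this block in either direction and 1.97% as lower in F4/80lo Mϕ. Without the libraries of number 3, an alternative chosen after seeing the data, Pf4 differed by -2.01 (limma, adjusted p = 0.00391) and Cxcl2 by -1.70 (limma, adjusted p = 0.00793), while 1.09% of genes passed as lower.

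Within each treatment the blocked difference of Pf4 was -2.19 with VEH (limma, adjusted p = 0.000524) and -1.65 with CIII (limma, adjusted p = 0.00199), where 0.382% and 0.484% of genes passed as lower. Cxcl2 differed by -0.72 with VEH (limma with the block, adjusted p = 0.419) and -1.80 with CIII (limma with the block, adjusted p = 0.0522), neither of which passed. Without number 3, Pf4 passed with VEH (limma, adjusted p = 0.0404) and not with CIII (limma, adjusted p = 0.115), and Cxcl2 passed with CIII (limma, adjusted p = 0.0339) and not with VEH (limma, adjusted p = 0.332), while 0.14% of genes passed as lower with VEH and 0.205% with CIII. Cxcl1, the other ligand of Cxcr2, was weakly detected, with at most 7.17 RPM in F4/80lo and 34.5 RPM in the F4/80hi subpopulation. It was lower in F4/80lo Mϕ in 5 of 6 pairs and at 0 reads in both libraries of the sixth, with a difference of -1.30 (limma with the block, adjusted p = 0.191). In the pairs of VEH number 2 and CIII number 3 the direction rested on 0 reads against 1, which is within counting error.

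The other 5 ligands did not pass the test with or without the block. Cxcl9 was higher in F4/80lo Mϕ in 4 of 6 pairs and at 0 in both libraries of the other 2, with a difference of 1.05 (95% confidence interval -0.06 to 2.15 with the block). This difference was 0.018 with VEH and 2.08 with CIII, where 3 of 3 pairs were higher in F4/80lo Mϕ (limma with the block, adjusted p = 0.995 and 0.217). Cxcl10, Cxcl13, Cxcl14 and Cxcl16 were each higher in F4/80lo Mϕ in 3 of 6 pairs and lower in 3, with blocked differences of 0.34, -0.61, -0.0016 and 0.51. Their 95% confidence intervals with the block were -0.76 to 1.43, -1.88 to 0.67, -0.96 to 0.96 and -0.23 to 1.25, and differences within them were not detectable here. In bulk samples fewer cells of a type and less RNA per cell cannot be told apart.

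**Figure D2:**
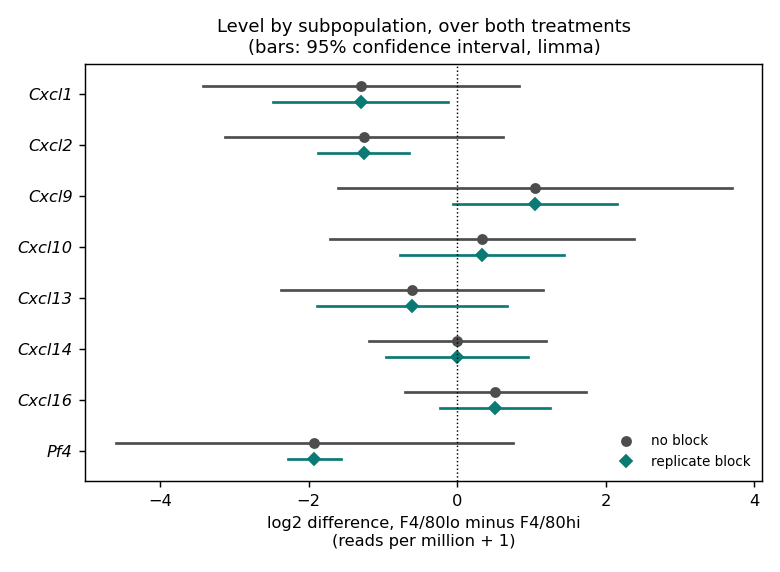
Difference in log2(RPM + 1) between F4/80lo and F4/80hi Mϕ for the 8 ligands over both treatments, with 95% confidence intervals from limma without (grey circles) and with (green diamonds) same-numbered libraries as a block. The estimates are equal in both fits, and with the block the intervals of Pf4, Cxcl2 and Cxcl1 lie below 0.

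Markers of other cells were set beside these differences. Of 8 resident peritoneal Mϕ markers, 8 were lower in F4/80lo Mϕ, with a median difference of -1.66 against 0.07 over all genes tested, and 0 of 8 passed without the block. With the block, the fit in which Pf4 and Cxcl2 passed, 6 of the 8 did, among them Cd5l (-2.66, limma, adjusted p = 7.6e-06), a scavenger protein of tissue Mϕ, and Gata6 (-2.52, limma, adjusted p = 0.00769), the transcription factor of resident peritoneal Mϕ. Their summed level was 593 to 1671 RPM in F4/80lo Mϕ, against 718 to 7444 RPM in F4/80hi Mϕ. Of 8 monocyte-derived Mϕ markers, 8 were higher in F4/80lo Mϕ and 1, Cx3cr1, passed (difference 2.81, limma, adjusted p = 0.0462). With the block Cd74, H2-Eb1 and Ccr2 joined it (limma, adjusted p of 0.000749 to 0.00106). Among the resident markers, Adgre1 and Mertk encode the sorted antigens F4/80 and MerTK. H2-Eb1 and Cd74 belong to MHCII presentation, and F4/80lo Mϕ were gated on MHCII. These members of both lists are therefore not independent of the sort. Of 6 general Mϕ markers 3 were higher and 3 lower, and with the block Itgam and Cd68 passed as lower. Of 9 markers of platelets, the usual source of Pf4, Gp1ba, Gp9 and Tubb1 were at 0 in all 12 libraries. The 9 markers summed to 51.6 RPM in F4/80lo CIII replicate 2, to 19.1 RPM in F4/80lo VEH replicate 1 and to 0.769 to 4.59 RPM in the other 10 libraries, and Treml1 made up most of the highest sum. The 7 dendritic cell markers summed to 5.61 to 250 RPM in F4/80lo Mϕ, against 1.35 to 21.7 RPM in F4/80hi Mϕ, and the 4 of them that were tested were all higher in F4/80lo Mϕ, with Cd209a at 4.14 (limma, adjusted p = 0.0939). None of these 4 passed without the block and all 4 did with it (limma, adjusted p of 0.000537 to 0.00769). With the block, 1 B cell marker, Ighm, also passed as higher in F4/80lo Mϕ (2.58, limma, adjusted p = 0.0178). The 7 B cell markers summed to 20.4 to 189 and 0 to 63.9 RPM, the 7 T and NK cell markers to 5.65 to 32.8 and 0 to 29.5, the 10 neutrophil markers to 23.1 to 74.9 and 36.6 to 124, and the 8 mesothelial and stromal markers to at most 4.79. The gating shown by the study set aside CD11c+ MHCII+ dendritic cells and CD11b- lymphoid cells, and Ly6G+ neutrophils before F4/80lo Mϕ were taken. The part of other cells in the levels of the ligands was not tested.

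A further pattern ran through all 4 groups. Cxcl2 and Pf4 were lowest in the library with replicate number 3 in 4 of 4 groups, and Cxcl9, Cxcl10 and Cxcl16 were highest there in 4 of 4. Among the 10097 genes tested in both tables, 10.7% were lowest and 14.9% highest in this library in every group, so that such a position was common. For Cxcl9 the libraries of number 3 had 27.0 to 53.3 RPM and the other 8 libraries 0 to 14.1. Cxcl1 and Cxcl13 were lowest there in 3 of 4 groups, and Cxcl14 was highest in 1 and lowest in 2. The share of reads taken by Gm42418 and the low sum of resident markers moved with this library, and their part in the pattern was not tested.

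**Figure D3:**
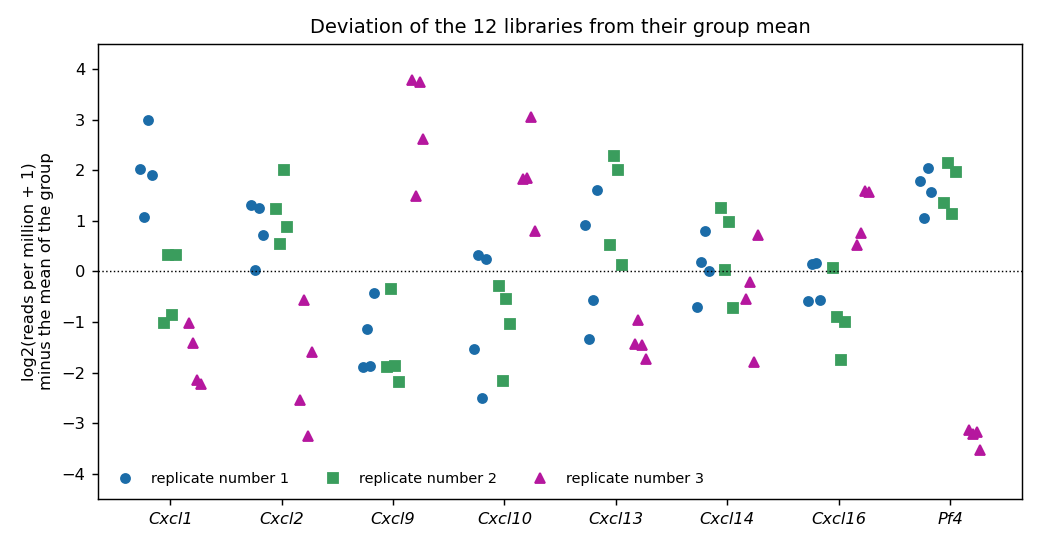
Deviation of each of the 12 libraries from the mean of its own group, in log2(RPM + 1), for each ligand, with replicate numbers 1, 2 and 3 as blue circles, green squares and purple triangles (4 libraries each). The triangles of Pf4 and Cxcl2 all lie below 0 and those of Cxcl9, Cxcl10 and Cxcl16 all above 0.

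Next, the response to CIII was examined within each subpopulation, on the log2 of the deposited normalized count plus 1. In F4/80lo Mϕ 7 of the 8 ligands reached the minimum mean of 3 normalized counts (Cxcl1, at a mean of 2.25, did not), and in F4/80hi Mϕ 8 did. None had an adjusted p under 0.05 in limma, where 0% of the 10718 genes of F4/80lo Mϕ passed, with 0% of 10499 for F4/80hi Mϕ, nor in edgeR or DESeq2, which left 7 of the 8 ligands in F4/80hi Mϕ without an adjusted value. Before adjustment, 0 ligands had a p under 0.05 in limma (2.7% of all genes in F4/80lo Mϕ and 3.93% in F4/80hi Mϕ) or in edgeR, and 1, Cxcl2 in F4/80lo Mϕ, had one in DESeq2 with 2.76% of all genes (p = 0.0390, against p = 0.4 in an exact permutation test). The VEH and CIII libraries of no ligand were separated from each other, whereas 8.73% of all genes were separated in F4/80lo Mϕ, against 10.5% in F4/80hi Mϕ. With 3 libraries in each arm the smallest p of an exact permutation test is 0.1. This test gave p from 0.2 to 1 for the ligands of F4/80lo Mϕ, and from 0.5 to 1 for those of F4/80hi Mϕ.

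Among the neutrophil attractants, Cxcl2 in F4/80lo Mϕ had 80.3, 70.6 and 5.33 normalized counts with VEH and 14.9, 22.8 and 9.95 with CIII. With numbers 1 and 2 it was lower with CIII, and with number 3 it was higher. The log2 difference was -1.05 (standard error 0.87, limma, adjusted p = 0.9996) over all 6 libraries and -1.97 (limma, adjusted p = 0.891) without number 3. It ran from -2.25 without VEH replicate 3 to -0.41 without VEH replicate 1. Its F4/80hi values were 125, 200 and 5.24 normalized counts with VEH and 86.6, 94.9 and 17.5 with CIII, again lower in 2 of 3 numbers. There the difference was -0.0072 (standard error 1.20, limma, adjusted p = 0.999) over all libraries and -0.79 (limma, adjusted p = 0.685) without number 3. Cxcl1 had at most 6.98 normalized counts in F4/80lo Mϕ. Among F4/80hi libraries it ran from 0 to 33.2, with a log2 difference of 0.67 (standard error 1.43, limma, adjusted p = 0.993).

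Of the interferon-responsive ligands, Cxcl9 in F4/80lo Mϕ had 0, 0 and 57.0 normalized counts with VEH and 7.09, 13.7 and 50.9 with CIII. It was undetected with VEH and present with CIII in numbers 1 and 2, and slightly lower with CIII in number 3. The counts behind this were small, since the 2 CIII libraries held 10 and 6 reads, and a count of 0 leaves room for 3 reads, or 3.59 and 4.24 RPM in the 2 VEH libraries. The log2 difference was 2.24 (standard error 1.41, limma, adjusted p = 0.9996). With the replicate number as a block its standard error was 0.84 (limma, adjusted p = 0.689), and before adjustment Cxcl9 was among the 6.89% of genes with a p under 0.05. The size of this difference rested on the 2 VEH libraries at 0. It was 1.01 with a pseudocount of 5, 0.18 in edgeR and 0.32 in DESeq2, and ran from 1.27 without VEH replicate 1 or 2 to 4.2 without VEH replicate 3. By replicate number, in the order 1 to 3, it was 3.02, 3.88 and -0.16. For F4/80hi Mϕ the values of Cxcl9 were 0, 0 and 53.5 normalized counts with VEH and 2.17, 0 and 25.7 with CIII (log2 difference 0.21, limma, adjusted p = 0.999). By replicate number this difference was 1.66, 0 and -1.03, and it turned negative in edgeR, in DESeq2 and with a pseudocount of 5.

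Cxcl10 had 2.33, 6.42 and 38.3 normalized counts with VEH and 4.26, 0 and 14.4 with CIII in F4/80lo Mϕ. In F4/80hi Mϕ it had 0, 2.61 and 51.4 with VEH and 4.33, 1.20 and 7.11 with CIII. Both subpopulations had the gene lower with CIII in numbers 2 and 3 and higher in number 1. The log2 differences were -1.20 in F4/80lo Mϕ (standard error 1.18, limma, adjusted p = 0.9996) and -0.33 in F4/80hi Mϕ (standard error 1.35, limma, adjusted p = 0.999). The F4/80hi value was -2.03 in edgeR and -2.07 in DESeq2, and turned positive without the libraries of number 3. The F4/80lo value ran from -2.11 without CIII replicate 3 to -0.14 without CIII replicate 2.

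Pf4 was lower with CIII in all 3 numbers in F4/80hi Mϕ. It had 2421, 1207 and 73.4 normalized counts with VEH and 707, 921 and 20.8 with CIII, and the treatments overlapped because of the libraries of number 3. The log2 difference was -1.31 (standard error 1.56, limma, adjusted p = 0.992). With the block its standard error was 0.31 (limma, adjusted p = 0.168), so Pf4 did not pass after adjustment, and before adjustment it was among the 11.3% of genes with a p under 0.05. Without number 3 the difference was -1.08 (limma, adjusted p = 0.685), and leaving out CIII replicate 3 alone, without the block, turned it to 0.43. In F4/80lo Mϕ Pf4 had 446, 311 and 16 normalized counts with VEH and 162, 361 and 7.74 with CIII, and was lower with CIII in numbers 1 and 3 and higher in number 2. This gave a log2 difference of -0.73 (standard error 1.35, limma, adjusted p = 0.9996), which turned positive without CIII replicate 3.

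**Figure D4:**
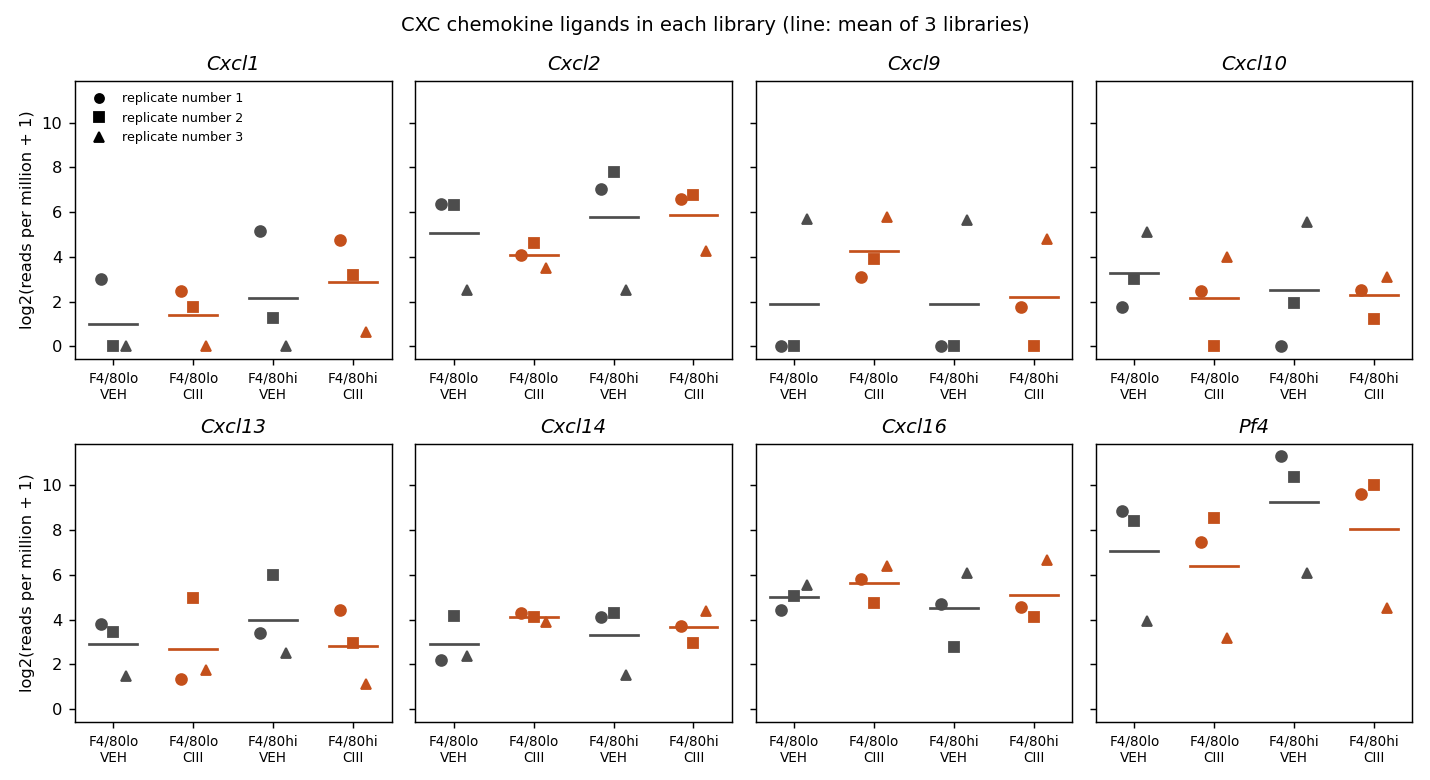
Level of each ligand in log2(RPM + 1) in every library of the 4 groups, VEH in grey and CIII in orange, with circles, squares and triangles for replicate numbers 1, 2 and 3 and a line at the mean of 3 libraries. In each panel the VEH and CIII libraries of a subpopulation overlap, and Pf4 reaches the highest levels.

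Cxcl14, the homeostatic chemokine, was higher with CIII in 3 of 3 numbers in F4/80lo Mϕ. It had 3.49, 15.4 and 4.66 normalized counts with VEH and 17.0, 16 and 13.3 with CIII, so that VEH replicate 2 lay within the CIII range. The log2 difference was 1.13 (standard error 0.69, limma, adjusted p = 0.9996), and no other ligand in F4/80lo Mϕ pointed 1 way in all 3 numbers. In F4/80hi Mϕ it was lower with CIII in 2 of 3 numbers, with 2.10 to 17.0 normalized counts with VEH and 6.01 to 19.1 with CIII (log2 difference 0.27, limma, adjusted p = 0.999).

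Cxcl16 ran from 19.8 to 51.0 normalized counts with VEH and 25.1 to 79.6 with CIII in F4/80lo Mϕ, and from 5.23 to 74.4 and 14.4 to 96.3 in F4/80hi Mϕ. In both subpopulations it was higher with CIII in 2 of 3 numbers, with log2 differences of 0.57 (95% confidence interval -0.59 to 1.73) and 0.48 (-1.66 to 2.63). Cxcl13 ran from 2.0 to 12.8 with VEH and 1.42 to 29.7 with CIII in F4/80lo Mϕ (log2 difference -0.26, -2.61 to 2.09). Cxcl13 in F4/80hi Mϕ ran from 5.24 to 56.2 with VEH and from 1.09 to 18.8 with CIII (log2 difference -1.22, -3.54 to 1.10). All 4 intervals include 0.

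The cell type markers were also compared between the treatments. Of 8 monocyte-derived Mϕ markers, 6 were higher and 2 lower with CIII in F4/80lo Mϕ (median log2 difference 0.86 against -0.05 over all genes), and 7 were higher and 1 lower in F4/80hi Mϕ (median 1.28 against 0.05). None passed after adjustment, with or without the block. The fractalkine receptor Cx3cr1 differed by 1.49 in F4/80lo Mϕ (limma with the block, adjusted p = 0.302) and by 1.71 in F4/80hi Mϕ (limma with the block, adjusted p = 0.155). The summed level of the 8 markers was 3991 to 6666 RPM with VEH and 7039 to 13418 with CIII in F4/80lo Mϕ, without overlap. Of single genes there, 8.73% were separated in either direction. The 802 to 2971 RPM with VEH and 1369 to 7680 with CIII of F4/80hi Mϕ overlapped. Of the 8 markers, the study had named Cx3cr1, Itgb7 and H2-Eb1 as raised by CIII in these same libraries. The counts, medians and sums of this list are therefore not independent of that result. Resident markers split into 4 higher and 3 lower of 7 tested in F4/80lo Mϕ, and 2 higher and 6 lower of 8 in F4/80hi Mϕ. S100a8, a neutrophil and monocyte gene, differed by -2.0 with CIII in F4/80hi Mϕ (limma, adjusted p = 0.992, and 0.156 with the block), and Csf3r, the only other neutrophil marker tested there, by 0.25 (limma, adjusted p = 0.999). The 10 neutrophil markers there summed to 49.7 to 124 RPM with VEH and 36.6 to 45.5 with CIII. The 4 dendritic cell markers tested in F4/80lo Mϕ were higher with CIII (median 0.93). In F4/80hi Mϕ the 1 tested dendritic cell marker, Zbtb46, differed by -0.95, the B cell markers Ebf1 and Ighm by 1.87 and 1.65, and the NK cell marker Nkg7 by -2.29, and none of these markers passed with or without the block. The part of these markers in the response of the ligands was not tested.

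**Figure D5:**
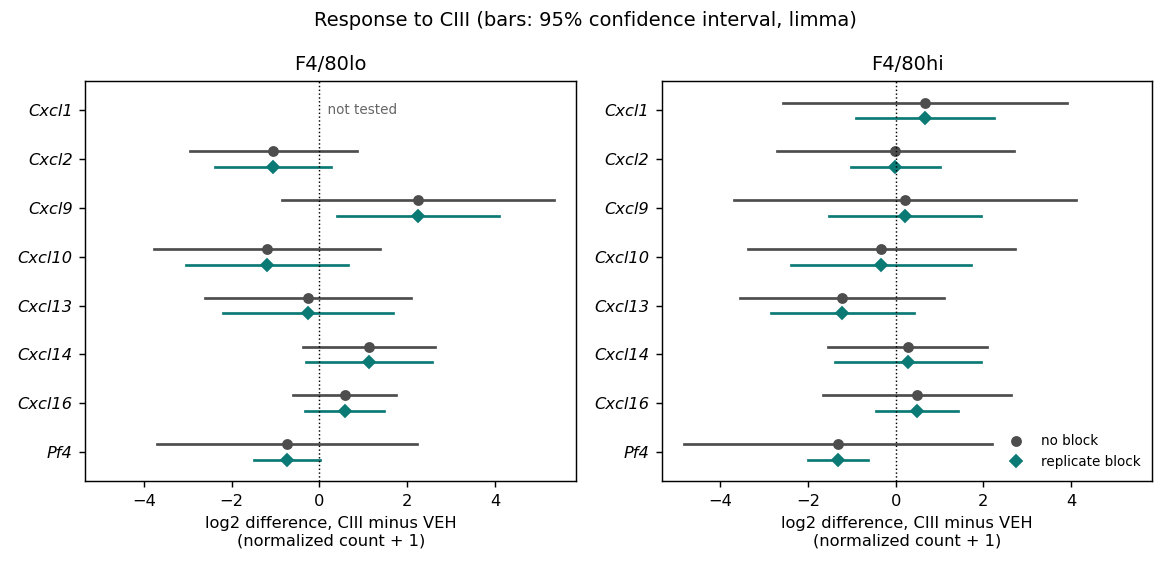
Log2 difference of normalized count plus 1 between CIII and VEH in F4/80lo (left) and F4/80hi (right) Mϕ for each ligand, with 95% confidence intervals from limma without (grey circles) and with (green diamonds) the replicate number as a block. With the block the intervals of Cxcl9 in F4/80lo and Pf4 in F4/80hi Mϕ lie off 0, and neither gene passed after adjustment over all genes.

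The difference between the 2 responses was tested directly, over the 4 group means. None of the 7 ligands tested in both subpopulations had an adjusted p under 0.05 in limma (0% of 10097 genes) or an unadjusted p under 0.05 (1.71% of genes, and 5.34% with the block), with or without the block. The largest differences were 2.03 for Cxcl9 (95% confidence interval -3.45 to 7.51) and -1.04 for Cxcl2 (-4.68 to 2.59), so a response particular to 1 subpopulation was not shown for any ligand.

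Further CXC ligands and the CXC receptors were examined next. Of 7 further CXC ligands, none reached the minimum. Cxcl5, Cxcl15 and Cxcl17 were at 0 in all libraries, and Cxcl3 had at most 5.32, Cxcl11 3.33, Cxcl12 1.33 and Ppbp 1.33 normalized counts. Of 8 CXC receptors, Cxcr4, the receptor of Cxcl12, was detected in 12 of 12 libraries, with 3.32 to 25.1 normalized counts in F4/80lo Mϕ, against 1.31 to 21.3 in F4/80hi Mϕ. Ackr3, an atypical scavenging receptor of Cxcl12, reached 10.3 in F4/80lo Mϕ, against 40.5 in F4/80hi Mϕ, and differed by -1.65 between them (limma, adjusted p = 0.571, and 0.0589 with the block). With CIII, Cxcr4 differed by -1.0 in F4/80lo Mϕ, against 0.68 in F4/80hi Mϕ, and Ackr3 by 0.50 and 1.43, none of which passed (limma, smallest adjusted p = 0.992). Cxcr1 and Ackr1 were at 0, and Cxcr2, Cxcr3, Cxcr5 and Cxcr6 reached at most 1.44, 2.66, 3.85 and 14.4. The receptor of Cxcl1 and Cxcl2 (Cxcr2) and that of Cxcl9 and Cxcl10 (Cxcr3) were thus at or near 0 in these Mϕ. The highest value of Cxcr6, the receptor of Cxcl16, lay within the range of Cxcr4.

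Of 17 genes of NF-kB and the inflammatory response, 14 were tested in F4/80lo Mϕ, 9 higher and 5 lower with CIII (median 0.21), and 15 in F4/80hi Mϕ, 11 higher and 4 lower (median 0.37). None passed after adjustment. Tnfaip3, an inhibitor of NF-kB, differed by -2.10 in F4/80lo Mϕ (limma, adjusted p = 0.9996), in the direction of Cxcl2, while Icam1 differed by 0.98 (limma, adjusted p = 0.9996). In level, 11 of 15 tested NF-kB and inflammatory genes were higher and 4 lower in F4/80lo Mϕ (median 0.50 against 0.07 over all genes), and 0 passed without the block. With the block Il1b, Nfkb1 and Icam1 passed as higher, and Sod2 as lower, the direction of Cxcl2 (limma, adjusted p of 0.00166 to 0.0124). Of 11 proteases and inhibitors that process chemokines, 8 were tested in F4/80lo Mϕ, 5 higher and 3 lower with CIII, with Mmp12, a Mϕ elastase, at -3.08 (limma, adjusted p = 0.9996). In F4/80hi Mϕ 7 were tested, 4 higher and 3 lower, and none passed after adjustment. Dpp4, which trims the N terminus of Cxcl9 and Cxcl10, was higher in F4/80lo than in F4/80hi Mϕ by 3.83 with the block (limma, adjusted p = 0.00163), and not called without it (limma, adjusted p = 0.0610). Of the 8 tested genes of this list 2 were higher and 6 lower in F4/80lo Mϕ, and with the block Timp2, an inhibitor of metalloproteases, passed as lower (-1.32, limma, adjusted p = 0.000396).

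The genes whose profile across the 12 libraries was most like that of a ligand were listed by the root-mean-square difference of centred log2(RPM + 1) values, among 10728 genes. For Cxcl2 they were Prc1 (0.42), Esco2 and Anln, and for Pf4 they were Plk1 (0.90), Cd63 and Ccna2. For Cxcl9 they were Gm43329 (0.77), Ing4 and mt-Ta, and for Cxcl10 Smad7 (0.65), Slc15a3 and Gm9800. Cxcl16 was most like Pex6 (0.40), Arid4a and Smc6, Cxcl14 most like Slc25a13 (0.48), Tesk1 and Soga1, Cxcl13 most like Tcim (0.57), Gm6030 and Gm36963, and Cxcl1 most like Cdca2 (0.93), Cbr2 and Hal. The libraries share depth and replicate number, so such likeness describes these 12 libraries alone.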

How the data were processed

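Libraries of mRNA from sorted Mϕ were made by the authors with a 3′ kit that carries unique molecular identifiers (UMI). Per the labels and the study's methods, reads were trimmed with Bbduk, mapped to GRCm38 with STAR, collapsed by UMI, counted per gene with HTSeq-count and scaled with DESeq2 size factors, versions not given in the sources used here. The values deposited by the authors are a signal of normalized counts, each a whole read count divided by 1 size factor per library, set separately for F4/80lo and F4/80hi Mϕ. Whole reads were recovered from the step of each library (100% of values, tolerance 0.01), and a count of 0 allows up to 3 reads, or 0.885 to 7.03 reads per 1000000 reads on genes (RPM), for counting error only.

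Ensembl identifiers were named with GENCODE M21, which matched 47224 of 47643. CIII was compared with VEH in each table alone with limma 3.58.1 (R 4.3.3) on log2(normalized count + 1), for genes that reached a minimum mean of 3 normalized counts. The added 1 shrinks ratios between low values, and a difference of mean logs need not match the fold of mean counts fitted by edgeR and DESeq2. The difference between responses and the level by subpopulation were tested over the 12 libraries, the latter on log2(RPM + 1) with a mean of at least 3 RPM. All p-values are two-sided and were adjusted by the Benjamini-Hochberg method over all genes tested, with a threshold of 0.05. Alternatives included edgeR 4.0.16 and DESeq2 1.42.0 on the recovered reads, and all fits were tested on simulated data.

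The replicate numbers come from the labels, and the study states no pairing. Libraries with the same number deviated together from their group means (correlation across genes 0.121, 0.238 and 0.504 between VEH and CIII in F4/80lo Mϕ, against 0.216, 0.412 and 0.639 in F4/80hi Mϕ, and 0.259 to 0.685 between subpopulations), so the fit with the number as a block is given where it changes a call. VEH number 1 correlated more with CIII number 2 (0.171 and 0.285) than with its own.

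The ligands and gene lists (further CXC ligands, CXC receptors, NF-kB and inflammatory genes, chemokine processing, cell type markers) were chosen with earlier results of these data known, and a further list and promoter motif are not reported here. Named were the 8 ligands, at most 3 genes of each list by the smallest p, detected CXC ligands and receptors, and the 3 genes most like each ligand. The sorted marker Mertk, Dpp4, S100a8, Csf3r, the lymphoid and dendritic cell markers in F4/80hi Mϕ, the markers at 0 and those that passed with the block were named with their values in view. Plots were made in matplotlib 3.10.9 (Python 3.11.15).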

Additional observations from a re-analysis of the deposited data

How the results depend on the processing

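The replicate block, the number 3 libraries and single left-out libraries moved the results most. With no block, 4 genes differed in level between subpopulations at an adjusted p under 0.05 (3 higher and 1 lower in F4/80lo Mϕ), against 582 with the replicate block (370 and 212), 262 without number 3, 11 with a pseudocount of 5, 2 with a minimum mean of 10, with edgeR or with TMM scaling (1 higher and 1 lower), 0 with no minimum, and 0 to 124 with 1 library left out (124 without F4/80hi VEH replicate 3). Pf4 and Cxcl2 were called lower in F4/80lo Mϕ only with the block and without number 3, and in no unblocked fit that left out 1 library (limma, adjusted p of 0.276 to 0.897 for Pf4 and 0.146 to 0.900 for Cxcl2). For CIII against VEH in F4/80lo Mϕ the count of 0 genes became 2 with DESeq2 and 6 with the block without number 3, none of them a ligand. Within treatments the block raised the count of genes differing in level from 0 to 146 with VEH and from 0 to 83 with CIII, Pf4 among both, and it changed no other call of a ligand. With RPM in place of the deposited size factors, the median log2 difference of all genes in F4/80hi Mϕ moved from 0.05 to 0.15.

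Of 824 values of single ligands under an alternative, 738 kept their direction and side of the threshold, 8 passed the threshold and 78 changed sign, all of the latter in values that passed nowhere. For CIII against VEH in F4/80lo Mϕ, Cxcl13 became 0.35 with edgeR and 0.43 with DESeq2. In F4/80hi Mϕ, Cxcl1 became -0.096 and -0.12 with these, Cxcl9 -0.90 and -0.94, and -0.14 with a pseudocount of 5. Cxcl2 became 0.018 with a pseudocount of 0.5 and 0.091 with RPM, and without number 3, with or without the block, Cxcl10 became 0.85 and Cxcl14 -0.94. In level, edgeR turned Cxcl10 (-0.20) and Cxcl16 (-0.10) with VEH and Cxcl10 (0.45) and Cxcl13 (0.0096) with CIII, and a pseudocount of 5 turned Cxcl10 with CIII (0.11). The cause was not tested.

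With 1 library left out, the log2 difference of CIII against VEH ran from -1.42 to 0.41 for Cxcl13 and -2.22 to 0.87 for Pf4 in F4/80lo Mϕ. In F4/80hi Mϕ it ran from -0.38 to 2.16 for Cxcl1, -1.56 to 0.94 for Cxcl2, -1.09 to 2.13 for Cxcl9, -1.59 to 1.26 for Cxcl10, -0.56 to 0.71 for Cxcl14, -0.45 to 1.35 for Cxcl16 and -2.82 to 0.43 for Pf4. The difference between responses ran from -2.24 to 0.51 for Cxcl2, -2.46 to 0.40 for Cxcl10, -0.20 to 1.75 for Cxcl13, -0.78 to 1.02 for Cxcl16 and -1.16 to 2.18 for Pf4. The level difference ran from -0.29 to 1.10 for Cxcl10 and -0.45 to 0.24 for Cxcl14 over both treatments. With VEH it ran from -2.21 to 0.37 for Cxcl1, -2.35 to 0.56 for Cxcl2, -1.88 to 1.90 for Cxcl9, -0.47 to 2.32 for Cxcl10, -1.31 to 0.071 for Cxcl14 and -0.39 to 1.28 for Cxcl16, and with CIII from -1.04 to 0.96 for Cxcl10 and -1.30 to 0.65 for Cxcl13. Cxcl1, Cxcl9 and Cxcl10 were each at 0 reads in 1 to 3 libraries of a subpopulation, for Cxcl1 also in the deepest of the 12 libraries.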
